A study of Danio rerio with 6 samples.

Results

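The spink2 genes of zebrafish form a cluster of neighbouring genes, and they were followed here in whole kidney RNA of runx1 null and wild type fish. Every gene in the deposited tables whose zebrafish symbol begins spink2 was taken, which gave 11 genes (spink2.1 to spink2.11) of the 32266 in the tables. The cluster was selected on the fold changes of spink2.10 and spink2.4 in this same comparison, where both stood among the most extreme decreases, so the values of all members are given as a description with no test. The runx1 null fish were homozygous for a deletion in runx1 (runx1-/-, del25, hg97), and the wild type fish were their siblings; both were of the EK strain and about 2.5 months old. Each genotype had 3 libraries, and each library was made from a pool of 3 kidneys. The labels describe a single mutant allele and whole dissected kidneys, with no sorting of cells.

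SPINK proteins are small secreted inhibitors of serine proteases. They carry a Kazal domain, a compact fold held by disulphide bonds, whose exposed loop enters the active site of the protease and blocks it. In human, SPINK2 is known from the testis and sperm and from blood stem and progenitor cells, while the roles of the single zebrafish copies are not given in the sources used here. The zebrafish kidney is both the excretory organ and the adult site of blood formation, and runx1 encodes a transcription factor needed for definitive blood cells. In RNA from whole tissue, fewer cells of a type and less RNA per cell cannot be told apart.

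The libraries held 16147770 to 27480381 expected counts in runx1 null pools and 23821763 to 30577328 in wild type pools. The mutated gene runx1 gave 0, 5 and 5 counts in runx1 null and 8, 5 and 7 in wild type libraries, too few to check the label of any one of them. Defining kidney and blood genes were present in both genotypes: the 11 kidney tubule genes matched summed to 1893 to 3885 CPM (counts scaled to library size) in runx1 null pools and 437 to 2979 CPM in wild type pools. Wild type pool 1 stood apart from the rest. Its TMM scaling factor of 0.772 compares with 1.01 to 1.08 elsewhere. The 8 erythroid genes matched summed to 124310 CPM in it, while they summed to 56431 to 70657 CPM in runx1 null pools and to 70597 and 76546 CPM in wild type pools 2 and 3. Genes of tissues beside the kidney also varied between pools: 13 liver genes summed to 1900 to 28189 CPM in runx1 null pools and 287 to 27716 CPM in wild type pools, and 12 oocyte genes to 4.12 to 413 CPM in runx1 null pools and 5.92 to 1324 CPM in wild type pools.

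In the RefSeq gene order of assembly GRCz12tu, which is not the build named for the counts, the 11 genes follow each other as spink2.1, spink2.2, spink2.7, spink2.3, spink2.11, spink2.10, spink2.8, spink2.4, spink2.9, spink2.5 and spink2.6. Between the first and the last of them lie 6 other RefSeq entries, 4 annotated as lncRNA and 2 as protein-coding, of which 0 could be matched to an identifier in the tables. RefSeq annotates 10 members as protein-coding and spink2.6 as a lncRNA. Expected counts can divide reads between similar genes, which leaves fractions. Values were deposited with 2 decimals, and a value was counted as whole only where both decimals were 0. All 11 members nevertheless had whole values in all 6 libraries, as did 81.4% of the 26649 genes with any count, so no fractional division shows in their rows. Reads dropped or placed wrongly before counting would not show there.

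The family as a whole was lower in runx1 null kidneys. Summed over the 11 genes there were 2404, 2761 and 3727 counts in the runx1 null pools and 4036, 6506 and 7021 counts in the wild type pools. Scaled to library size this was 144, 93.3 and 138 CPM in runx1 null pools, against 194, 257 and 213 CPM in wild type pools. The highest runx1 null pool lay below the lowest wild type pool. The family sum averaged 125 ± 27.6 CPM in runx1 null and 222 ± 32.1 CPM in wild type pools (SD, n = 3 each), a log2 fold change of -0.83 (SE 0.27). The sum does not depend on how reads were divided among the members. It does hide how unevenly the members behaved.

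**Figure D1:**
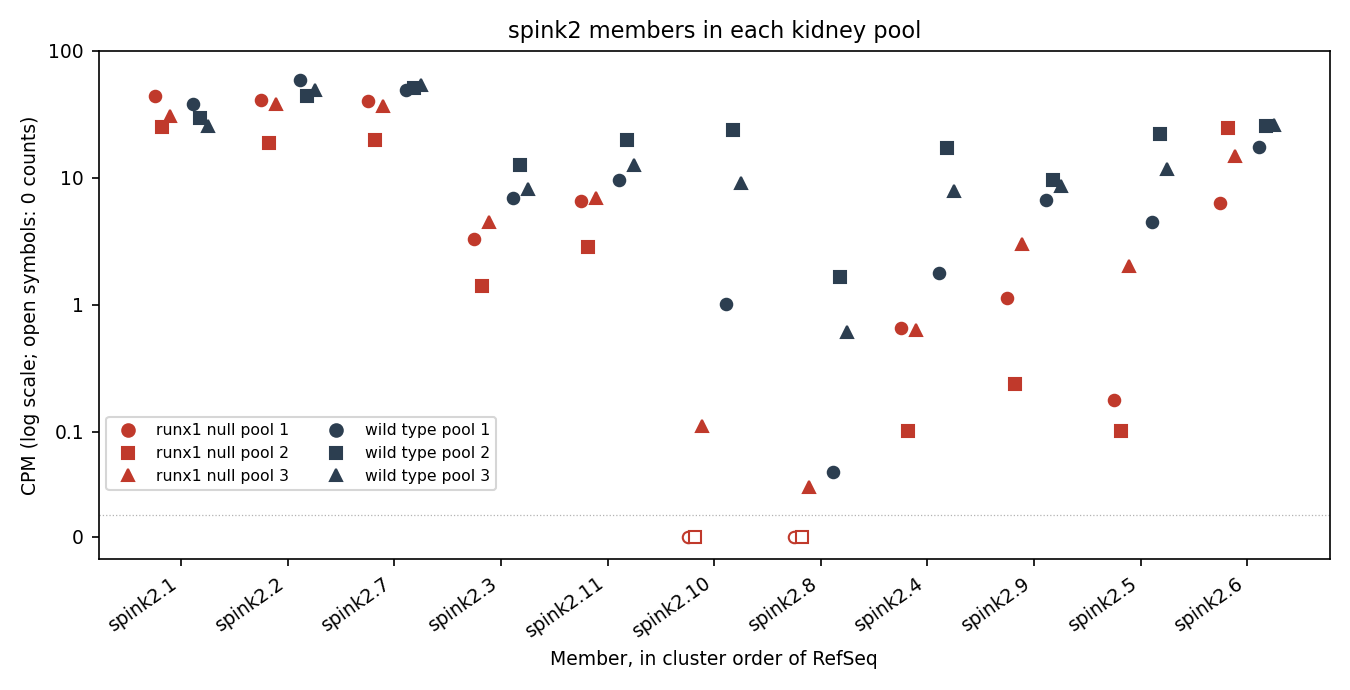
Level of each spink2 member in each kidney pool, in CPM on a log axis, in cluster order; red symbols are the 3 runx1 null pools, dark symbols the 3 wild type pools, and open symbols stand for 0 counts. All members but spink2.1 and spink2.6 have all runx1 null pools below the wild type pools, by little for spink2.2 and spink2.8, while the pools of spink2.1 and spink2.6 overlap.

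Of the 11 members, 10 had a log2 fold change below 0, where 52% of the 18866 genes tested did. In 9 members all runx1 null pools lay under the lowest wild type pool in CPM, beside 6.25% of all genes, and in 0 members did they all lie above the highest, beside 6.24%. Among the 9, spink2.8 did so only through TMM scaling, with 1 count in each of the pools nearest each other. For 7 members the fitted value was lower in runx1 null by 2-fold or more, beside 6.63% of all genes. These shares describe the comparison through which the cluster was chosen, and nothing is read from the difference. The median log2 fold change was -1.59 over the members and -0.03 over all genes tested, with quartiles of -0.36 and 0.41. The filter on low counts was passed by 10 members, and spink2.8 was added back so that it could be described. The filter asks for its minimum level in 3 libraries. For spink2.10 it was reached in 0 runx1 null pools, for spink2.5 in 1, and for spink2.4 and spink2.9 in 2, against all 3 wild type pools for each of these genes. These 4 genes therefore passed through their wild type pools, and spink2.10 on those alone.

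The first 3 genes of the cluster, spink2.1, spink2.2 and spink2.7, differed by at most 1.59-fold between the genotypes in the fit. spink2.1 (ENSDARG00000102076) was at 44.2, 25.2 and 30.9 CPM in runx1 null pools and 38.3, 29.5 and 25.5 CPM in wild type pools. The groups overlapped, and the log2 fold change was 0.10 (SE 0.30). spink2.2 (ENSDARG00000103833) was at 41.1, 18.8 and 38.4 CPM in runx1 null pools and 58.5, 44.3 and 49.5 CPM in wild type pools, a log2 fold change of -0.63 (SE 0.34). Its groups were only just apart, at 41.1 CPM in the highest runx1 null pool and 44.3 CPM in the lowest wild type pool. spink2.7 (ENSDARG00000102271) had 40.3, 19.9 and 36.5 CPM in runx1 null pools, against 49.5, 51.0 and 53.3 CPM in wild type pools, with a log2 fold change of -0.67 (SE 0.31). Runx1 null pool 2 was the lowest of the 6 libraries for all of these genes, and the wild type pools of spink2.7 were within 1.08-fold of each other.

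The next pair, spink2.3 and spink2.11, was lower in every runx1 null pool. spink2.3 (ENSDARG00000099689) was at 3.29, 1.42 and 4.52 CPM in runx1 null pools, against 6.89, 12.6 and 8.23 CPM in wild type pools. The fitted difference was 3.01-fold, or -1.59 on the log2 scale (SE 0.50). spink2.11 (ENSDARG00000103336) had 6.51, 2.87 and 6.92 CPM in runx1 null pools and 9.63, 19.7 and 12.7 CPM in wild type pools, a log2 fold change of -1.37 (SE 0.45). In both genes runx1 null pool 2 was lowest and wild type pool 2 highest.

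The 5 consecutive genes that follow, spink2.10, spink2.8, spink2.4, spink2.9 and spink2.5, held the steep differences. For spink2.10 (ENSDARG00000102868) the runx1 null pools gave 0, 0 and 3 counts, against 21, 600 and 298 counts in the wild type pools. In CPM runx1 null pool 3 stood at 0.111, against 1.01, 23.7 and 9.05 in the wild type pools. A count of 0 allows up to 3 counts, which is 0.179 CPM in runx1 null pool 1 and 0.101 CPM in runx1 null pool 2. Over the pooled reads of each genotype spink2.10 was lower in runx1 null by a ratio of 284, with a 95% exact interval of 97.0 to 1381 that covers counting error only. Of all 18866 genes it had the lowest fitted log2 fold change, -7.96 (SE 1.59). With runx1 null pools at or near 0, that value depends on the prior count inside edgeR's fit. That setting is separate from the prior count of 2 used for log2 CPM. Wild type pool 2 gave 600 of the 919 wild type counts: without it the ratio was 145 and the fitted value -6.82, and without runx1 null pool 3 the fitted value was -11.14.

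spink2.8 (ENSDARG00000099673) showed the same pattern at the limit of detection. It had 0, 0 and 1 counts in runx1 null pools and 1, 42 and 20 counts in wild type pools. Runx1 null pool 3, at 0.037 CPM, was close to wild type pool 1, at 0.048 CPM, each with 1 count. Over pooled reads it was lower in runx1 null by a ratio of 58.5, with a 95% exact interval of 10.1 to 2346, again for counting error only. The size of the difference thus rested on wild type pools 2 and 3. Wild type pool 1 had the larger deposited total, at 26902889 expected counts against 26644483 in runx1 null pool 3. It stood higher in CPM only through TMM scaling, with its factor of 0.772. In share of the family count the groups overlapped. Without wild type pool 2 the ratio was 28.7. The fitted log2 fold change of -5.40 became -4.23 without that pool, and leaving out runx1 null pool 3 gave -7.29.

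spink2.4 (ENSDARG00000100051) had 11, 3 and 17 counts in runx1 null pools and 37, 432 and 261 counts in wild type pools. This was 0.657, 0.101 and 0.629 CPM in runx1 null, against 1.78, 17.1 and 7.92 CPM in wild type. The wild type pools differed from each other by up to 9.58-fold. The log2 fold change was -4.28 (SE 1.03), a 19.5-fold difference in the fit. Leaving out wild type pool 1 gave -4.80 and leaving out wild type pool 2 gave -3.41.

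spink2.9 (ENSDARG00000099811) was the steadiest of these 5 in wild type kidneys. Its runx1 null pools were at 1.14, 0.236 and 3.04 CPM, against 6.74, 9.64 and 8.56 CPM in wild type pools. The mean was 1.47 ± 1.43 CPM in runx1 null and 8.31 ± 1.46 CPM in wild type pools (SD, n = 3 each), a log2 fold change of -2.49 (SE 0.82). Here the spread was among the runx1 null pools, with pool 3 at 12.8 times pool 2, and without pool 3 the log2 fold change was -3.64. spink2.5 (ENSDARG00000101290) was at 0.179, 0.101 and 2.04 CPM in runx1 null pools, against 4.53, 22.3 and 11.6 CPM in wild type pools. Its first 2 runx1 null pools had 3 counts each, and the fitted log2 fold change was -4.02 (SE 1.21). Without runx1 null pool 3, the highest of its group, that became -6.52, and without wild type pool 2 it was -3.37.

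The last member, spink2.6 (ENSDARG00000104721), did not follow its neighbours. Its runx1 null pools were at 6.27, 24.7 and 14.9 CPM and its wild type pools at 17.5, 25.4 and 26.1 CPM. The groups overlapped, and runx1 null pool 2, which was lowest for most other members, was here the highest of its group. The log2 fold change was -0.59 (SE 0.49).

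**Figure D2:**
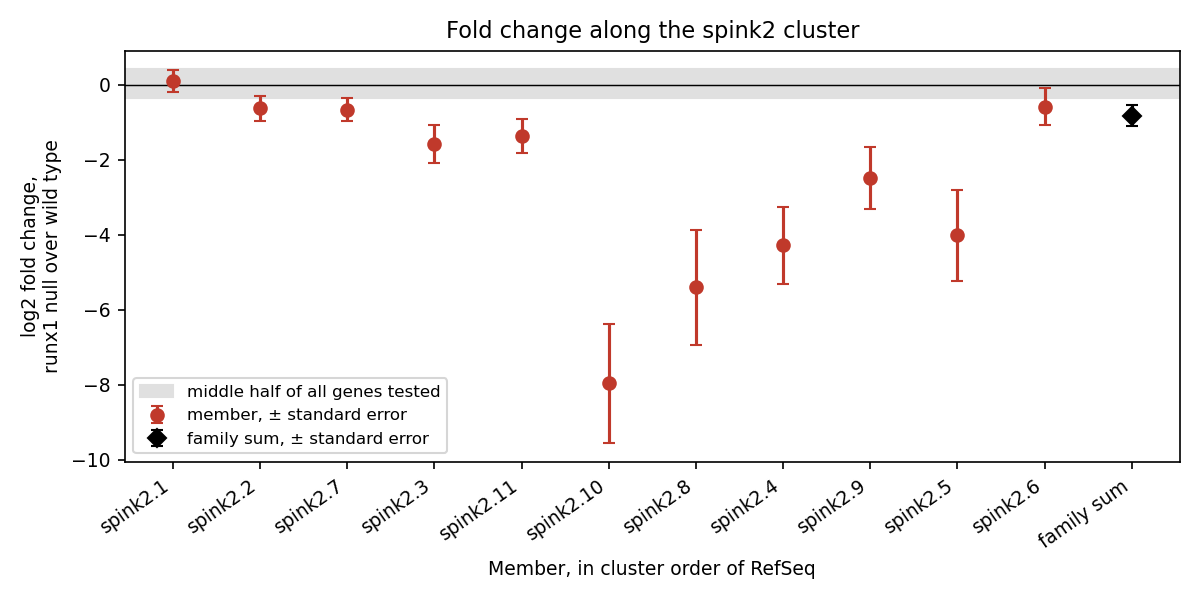
Log2 fold change of runx1 null over wild type for each spink2 member in cluster order and for the family sum, with standard errors from the edgeR fit; the grey band spans the quartiles of all genes tested, from -0.36 to 0.41. The values lie between -0.67 and 0.10 for the first 3 genes, between -7.96 and -2.49 for spink2.10 to spink2.5, and at -0.59 for spink2.6.

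Read along the cluster, the members can be divided into stretches, which were drawn after the values were seen. Positions 1 to 3 summed to 98.4 ± 31.5 CPM in runx1 null and 133 ± 11.5 CPM in wild type pools (SD, n = 3 each), with groups that overlapped. Positions 4 and 5 summed to 8.51 ± 3.75 CPM in runx1 null and 23.3 ± 8.19 CPM in wild type pools. For positions 6 to 10 the sums were 1.97, 0.439 and 5.85 CPM in runx1 null pools, against 14.1, 74.3 and 37.8 CPM in wild type pools, so that the mean was 15.3-fold lower in runx1 null. Without wild type pool 2 it was 9.42-fold lower, and without runx1 null pool 3 it was 34.9-fold lower. The highest runx1 null pool, pool 3, was still below the lowest wild type pool, pool 1.

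The make-up of the family count differed in the same way. Positions 6 to 10 gave 2.03 ± 1.97% of the family count in runx1 null and 18.0 ± 10.8% in wild type pools (SD, n = 3 each). The share of spink2.1 was 26.7 ± 4.18% in runx1 null and 14.4 ± 4.61% in wild type pools, without overlap, while its own level in CPM overlapped between the genotypes. spink2.2 held 25.5 ± 4.71% in runx1 null and 23.5 ± 6.42% in wild type pools, and spink2.7 held 25.3 ± 3.52% in runx1 null and 23.4 ± 3.12% in wild type pools, both with overlap. These are shares of reads, with no correction for transcript length. The family sum therefore reflects mostly the first 3 genes, which together gave 77.5 ± 9.52% of it in runx1 null and 61.3 ± 13.4% in wild type pools.

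**Figure D3:**
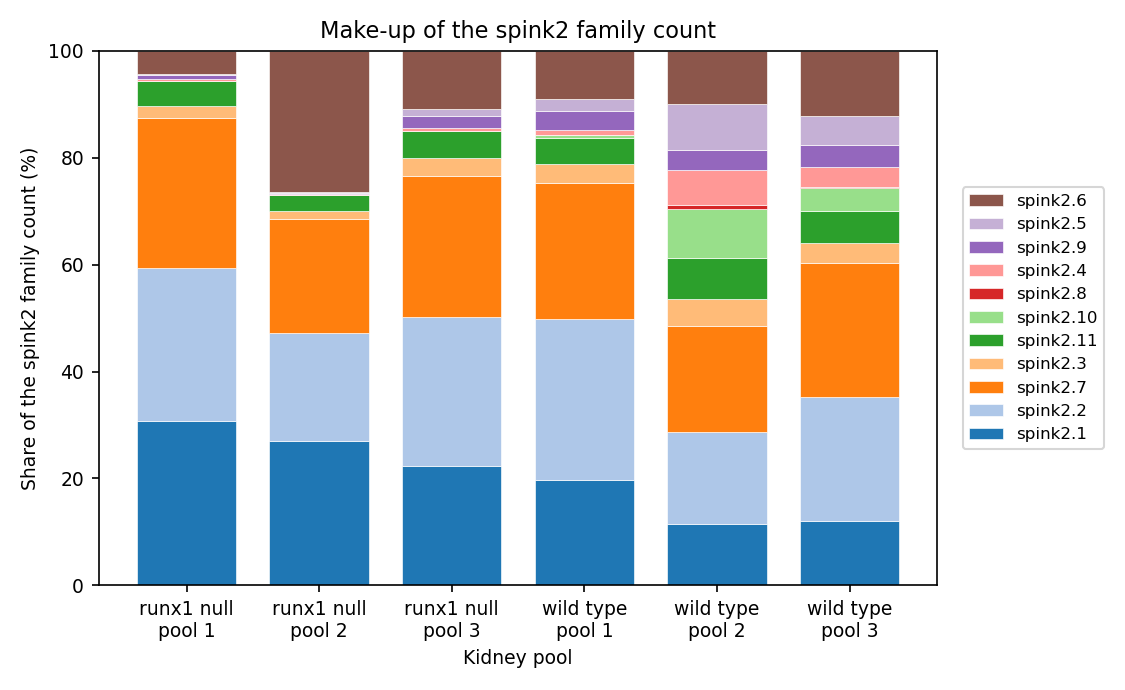
Share of the summed spink2 family count, in percent, held by each member in each kidney pool; runx1 null pools are on the left and wild type pools on the right, and members are stacked in cluster order from the bottom. The 5 genes from spink2.10 to spink2.5 hold 2.03 ± 1.97% on average in runx1 null pools and 18.0 ± 10.8% in wild type pools (SD, n = 3 each).

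Members also varied together between pools. Across the 6 libraries, which share the genotype difference, log2 CPM had a Pearson correlation of 0.73 to 0.99 for the 21 pairs among positions 4 to 10, and of 0.96 between spink2.2 and spink2.7. With the genes at positions 4 to 10, spink2.7 correlated at 0.62 to 0.93 and spink2.2 at 0.40 to 0.88, so these ranges ran into each other. spink2.1 correlated with the other members at -0.86 to 0.46, the lowest value being that with spink2.6. These correlations are descriptions over 6 points. Within wild type alone, pool 2 exceeded pool 1 by 23.4-fold for spink2.10, 34.4-fold for spink2.8, 9.58-fold for spink2.4 and 4.92-fold for spink2.5. The same ratio was 1.43 for spink2.9, 1.84 for spink2.3, 2.05 for spink2.11, 1.03 for spink2.7 and 0.771 for spink2.1. Thus 4 of the 5 genes at positions 6 to 10 also had the widest spread among wild type pools.

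The nearest genes outside the cluster that could be matched were uvssa, a factor of transcription-coupled DNA repair, on the spink2.1 side and neurl1b, a ubiquitin ligase gene of the Neuralized family, on the spink2.6 side. uvssa (ENSDARG00000100916) was at 9.46 ± 2.27 CPM in runx1 null and 9.48 ± 7.39 CPM in wild type pools (SD, n = 3 each), with an edgeR adjusted p of 0.9997 over all genes. neurl1b (ENSDARG00000099694) was at 7.78 ± 1.33 CPM in runx1 null and 5.29 ± 1.69 CPM in wild type pools, 0.55 higher on the log2 scale (SE 0.36; adjusted p 0.811 in edgeR). Neither passed the threshold of 0.05. The runx1 null pools of uvssa overlapped the wild type pools, and those of neurl1b lay above them.

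Among the wild type pools the summed neutrophil genes had the same order as positions 4 to 10 of the cluster. Positions 1 to 3 did not share it, at 146, 125 and 128 CPM in wild type pools 1, 2 and 3. Nor did spink2.6, which was highest in wild type pool 3. The 9 neutrophil genes matched summed to 185, 462 and 219 CPM in runx1 null pools and 368, 1634 and 907 CPM in wild type pools. Wild type pools 2 and 3 were thus highest for the neutrophil list and for positions 6 to 10 alike, and wild type pool 1 was lowest of its genotype for both. Runx1 null pool 2 lay above wild type pool 1, so the groups overlapped. Among runx1 null pools the sum was highest in pool 2, which had the least from positions 6 to 10. There mmp9 gave 228 of the 462 CPM. Without mmp9, which was left out after its values were seen, the list summed to 181, 234 and 216 CPM in runx1 null pools. In wild type pools it then summed to 360, 1605 and 895 CPM, and all runx1 null pools lay below these. Pool 2 was still the highest of the runx1 null pools, unlike at positions 6 to 10. Of the 9 genes 7 had a log2 fold change below 0, where 52% of all genes did, and 4 had all runx1 null pools below the wild type pools, beside 6.25% of all genes, with a list median of -1.31. The part of neutrophil number in the spink2 values was not tested.

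The matched neutrophil genes with the highest mean levels were lyz, npsn and mmp13a. npsn, a metalloprotease gene of neutrophils, was at 15.4, 11.8 and 20.3 CPM in runx1 null pools and 54.5, 252 and 140 CPM in wild type pools. lyz, which encodes lysozyme, was at 61.3, 31.2 and 96.1 CPM in runx1 null, against 162, 952 and 549 CPM in wild type pools. npsn and lyz had pool 2 highest and pool 1 lowest in wild type, and pool 3 highest and pool 2 lowest in runx1 null. The same order was seen in spink2.9 and spink2.5, and also in spink2.3 and spink2.11 at positions 4 and 5. Of these, spink2.5 had 3 counts in each of runx1 null pools 1 and 2. In runx1 null spink2.4 was highest in pool 1, and spink2.10 and spink2.8 had 0 counts in pools 1 and 2. mmp13a was at 23.5, 72.8 and 10.8 CPM in runx1 null pools and 28.2, 175 and 62.3 CPM in wild type pools. Within runx1 null, mmp13a, ncf1, cfbl, csf3r and mmp9 were highest in pool 2, abcb9 in pool 3 and mmp25b in pool 1. mmp9, a gelatinase gene, had its highest level in a runx1 null pool, at 3.47, 228 and 3.11 CPM in runx1 null pools and 7.80, 28.1 and 11.6 CPM in wild type pools.

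**Figure D4:**
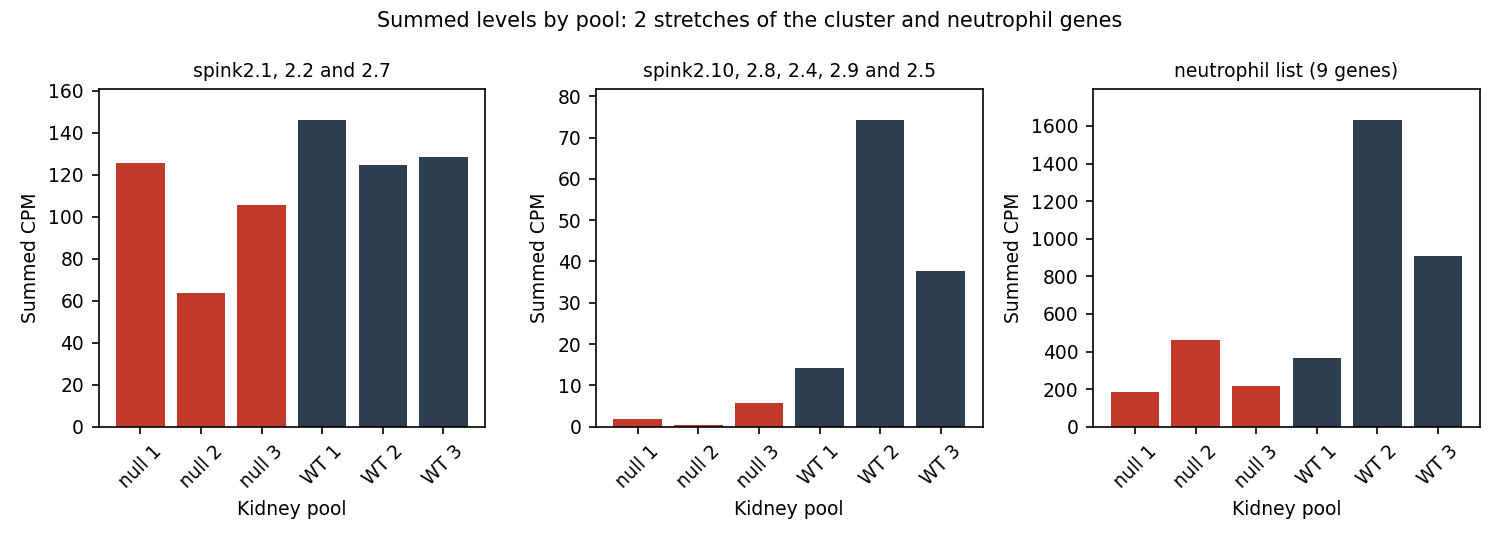
Summed CPM in each kidney pool for spink2.1, spink2.2 and spink2.7 (left), for spink2.10, spink2.8, spink2.4, spink2.9 and spink2.5 (middle) and for the 9 matched neutrophil genes (right); red bars are runx1 null pools (null) and dark bars wild type pools (WT). The middle sums run from 0.439 to 5.85 CPM in runx1 null and from 14.1 to 74.3 CPM in wild type pools, and the neutrophil sums from 185 to 462 CPM in runx1 null and from 368 to 1634 CPM in wild type pools.

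The order of wild type pools seen at positions 6 to 10, with pool 2 highest and pool 1 lowest, was shared by some other marker lists and not by all. The 6 thrombocyte genes matched summed to 476 to 569 CPM in runx1 null and 642 to 1326 CPM in wild type pools, with pool 1 highest in wild type. Here all runx1 null pools lay below the wild type pools with every matched gene kept. All 6 genes had a log2 fold change below 0, beside 52% of all genes, with a list median of -0.83. The HSPC list (blood stem and progenitor cells) had 9 genes matched, 1 of them also in the macrophage list. It summed to 534 to 586 CPM in runx1 null and 478 to 1186 CPM in wild type pools, which overlapped. Pool 1 was again highest in wild type, where tal1 gave 492 and lmo2 355 CPM. Of the 8 HSPC genes tested 7 had a log2 fold change below 0, beside 52% of all genes, with a list median of -0.40. gata2b went the other way, at 2.01 ± 0.463 CPM in runx1 null and 0.132 ± 0.0765 CPM in wild type pools (SD, n = 3 each). For 10 macrophage genes the sums were 345 to 663 CPM in runx1 null and 382 to 600 CPM in wild type pools. The 3 mast cell and eosinophil genes matched summed to 71.2 to 86.1 CPM in runx1 null and 84.9 to 131 CPM in wild type pools. The 9 B lymphocyte genes summed to 8.72, 9.53 and 123 CPM in runx1 null pools and 13.0, 52.9 and 29.2 CPM in wild type pools. In runx1 null pool 3 ighm gave 114 of the 123 CPM. Of the 6 genes tested 5 had a log2 fold change below 0, beside 52% of all genes, with a list median of -1.29. In 1, rag1, all runx1 null pools lay below the wild type pools, beside 6.25% of all genes. The 12 T and NK lymphocyte genes summed to 39.6, 35.1 and 48.8 CPM in runx1 null pools and 48.2, 74.6 and 50.3 CPM in wild type pools. Most of each sum was ptprc, at 25.3, 21.0 and 29.4 CPM in runx1 null pools and 39.3, 60.8 and 37.6 CPM in wild type pools. Of the 11 genes tested 5 had a log2 fold change below 0, beside 52% of all genes, with a list median of 0.21. In 1, ptprc, all runx1 null pools lay below the wild type pools, and in 2 they all lay above, beside 6.25% and 6.24% of all genes. The macrophage, B lymphocyte, T and NK lymphocyte and kidney tubule lists thus shared that order in wild type. In each of them the groups overlapped, as they did in the full neutrophil list. No gene was left out of these other lists. The part of these cell types in the spink2 values was not tested.

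Since human SPINK2 is known from sperm and other SPINK proteins from the pancreas and skin, those tissues were set beside the cluster as well. The 14 testis and sperm genes matched summed to 13.3 to 24.8 CPM in runx1 null and 10.6 to 20.2 CPM in wild type pools. Exocrine pancreas genes, 11 in number, summed to at most 15.0 CPM in runx1 null pools 1 and 2, to 337 CPM in runx1 null pool 3 and 4.53 to 13.6 CPM in wild type pools. The 12 genes of skin, gut and mucus summed to 171 to 1208 CPM in runx1 null and 96.3 to 892 CPM in wild type pools. In none of these 3 lists were the runx1 null pools all below the wild type pools. The pancreas sum was high in runx1 null pool 3 only, and the skin, gut and mucus sum in runx1 null pool 3 and wild type pool 1. Their part in the spink2 values was likewise not tested.

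Other genes that encode a Kazal domain lay mostly above 0 in log2 fold change. Of 30 listed, 17 were matched and 11 were tested. Of these 1, fstl4, was below 0, beside 52% of all genes, and the median was 0.53, beside -0.03 over all genes. fstl4 was at low levels, with 0.179, 0.034 and 0.037 CPM in runx1 null pools and 1.16, 0.829 and 0.546 CPM in wild type pools. Its log2 fold change was -3.42 (SE 0.77; adjusted p 0.759 in edgeR and 0.0732 in DESeq2). Of the 11, all runx1 null pools lay below the wild type pools in 1, fstl4, beside 6.25% of all genes. They lay above them in 2, beside 6.24%. sparc, which encodes a collagen-binding matrix protein, was the highest of them at 179 ± 7.80 CPM in runx1 null and 145 ± 106 CPM in wild type pools (SD, n = 3 each; edgeR adjusted p 0.883). agrn, which encodes the basement membrane proteoglycan agrin, was at 25.3 ± 5.42 CPM in runx1 null and 13.1 ± 6.50 CPM in wild type pools (edgeR adjusted p 0.811). The pools of sparc overlapped, while all runx1 null pools of agrn lay above the wild type pools. Among other protease inhibitors, mainly serpins, 22 were matched and 21 tested, with a median of 0.74 and 3 below 0, beside 52% of all genes. serpina1, the alpha-1 antitrypsin gene made chiefly in liver, was at 715 ± 599 CPM in runx1 null and 262 ± 225 CPM in wild type pools. It is also in the liver list. Like that list, serpina1 and the next highest inhibitors, serpina1l and serpinc1, were lowest in runx1 null pool 2 and wild type pool 1 within each genotype. Not every inhibitor had that order, and the part of liver RNA in the list median was not tested.

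Serine proteases, the class that SPINK proteins inhibit, gave 25 matched and 15 tested genes. Their median was 1.305, and 2 were below 0, beside 52% of all genes. The highest log2 fold changes, 4.05 to 4.34, were those of prss1, prss59.1, prss59.2 and ctrb1, which are also in the exocrine pancreas list. These genes were at 58.0 to 69.2 CPM in runx1 null pool 3 and at most 2.67 CPM in every other pool. The gene f2, which encodes the clotting protease prothrombin, was at 257 ± 189 CPM in runx1 null and 89.7 ± 71.8 CPM in wild type pools (SD, n = 3 each). plg, which encodes plasminogen, was at 158 ± 129 CPM in runx1 null and 64.0 ± 54.8 CPM in wild type pools. tmprss2, a membrane protease of epithelia, was at 26.5 ± 11.6 CPM in runx1 null and 23.3 ± 16.5 CPM in wild type pools. All these groups overlapped. Like the liver list, f2 and plg were lowest in runx1 null pool 2 and wild type pool 1 within each genotype.

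Across the transcriptome edgeR called 0 of 18866 genes (0%) at an adjusted p-value under 0.05, and 988 (5.24%) had an unadjusted p-value under 0.05. The DESeq2 Wald test called 105 of 18722 genes (0.561%), 36 higher and 69 lower in runx1 null. No gene of the Kazal, protease inhibitor and serine protease lists was called by either test, but 4 of the 15 serine proteases tested had no adjusted p-value in DESeq2. The same held for 1 of the 9 neutrophil genes, for 6 of the 7 exocrine pancreas genes tested and for 5 of the 8 of skin, gut and mucus. Of the neutrophil list 3 genes passed in DESeq2, all lower in runx1 null: lyz (adjusted p 0.00220), npsn (adjusted p 3.9e-05) and abcb9 (adjusted p 0.0173). In the other marker lists DESeq2 called itga2b and mpl of thrombocytes and rag1 of lymphocytes, all lower, and gata2b of the HSPC list, higher. With 3 pools a genotype an exact two-sided permutation test of a single gene cannot give a p-value under 0.1.

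The genes outside the family whose level was most like the family sum were tcf7l1b, MOB3A, arhgef1, PRKCD, NOCT and mtus1b. Their Pearson correlation with it was 0.973 to 0.979 over the 6 libraries, the highest of 13760 genes ranked on log2 CPM. mtus1b (ENSDARG00000034105) was at 11.3, 5.74 and 8.07 CPM in runx1 null pools and 14.1, 18.1 and 16.9 CPM in wild type pools, much like the family sum in its order. NOCT (ENSDARG00000077726), which encodes the circadian protein nocturnin, was at 47.7, 32.7 and 47.1 CPM in runx1 null pools and 80.4, 83.1 and 74.9 CPM in wild type pools. In all 6 genes, as in the sum, the highest runx1 null pool was under the lowest wild type pool. The ranking was unstable: leaving out 1 library kept between 0 and 3 of the 6 among the first 6.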

How the data were processed

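Per the labels' protocols, RNA libraries were made with a paired-end TruSeq kit, which does not mark strand, so overlapping genes on opposite strands cannot be told apart. The authors deposited 1 table of expected counts per library, not scaled between libraries; between 12.7% and 14.9% of a library's nonzero values were not whole. Per the submitters' processing notes, STAR, RSEM and DESeq2 and the build GRCz10 were used; the annotation is not given in the sources used here. A symbol table named 26433 of the 32266 identifiers, and cluster order came from RefSeq GRCz12tu. Listed genes were matched by symbol, by a unique synonym or by a unique symbol with case ignored, since the table often writes names as in human. Protein and promoter sequences were not used here.

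Expected counts were rounded and fitted in edgeR 4.0.16 (R 4.3.3) by its quasi-likelihood F test, with TMM scaling, filterByExpr at a minimum count of 10 and genotype as the only term; spink2.8 and runx1 were added back. P-values were adjusted by Benjamini-Hochberg over all genes. The SE is the size of the log2 fold change divided by the square root of F. CPM are edgeR's counts per TMM-scaled library size. The family sum was fitted as 1 row in place of the members. A prior count of 2 was used for log2 CPM. Simulated counts with known changes were fitted first as a test. DESeq2 1.42.0 served as an alternative, with 144 adjusted p-values left as NA. The members and gene lists were chosen with earlier results of these data known. Named were the members, runx1, the nearest neighbours and the 6 genes most like the family sum whose log2 CPM averaged 1 or more. Up to 3 of the highest genes per list, or those past a threshold, were named too. Beyond this rule mmp9 was named for its values, and the remaining matched neutrophil genes for their order among pools. fstl4, prss1, prss59.1, prss59.2 and ctrb1 were named for their fold changes. The pools are separate by the labels, so errors cover variation between pools.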

Additional observations from a re-analysis of the deposited data

How the results depend on the processing

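The log2 fold change of the family sum kept its direction in all 15 alternatives run, from -0.86 to -0.75 under other scalings, filters, tests and rounding or without spink2.6, and from -0.94 to -0.69 when 1 library was left out. The median over the 11 members ran from -1.66 to -1.54 and, with 1 library left out, from -1.98 to -1.28; with a mean count of at least 50 spink2.8 was lost and no such median was computed. Of 153 refits of single members 148 moved by less than the spread between pools without a change of sign. spink2.1 ran from -0.15 to 0.27 when 1 library was left out, turning to -0.15 without runx1 null pool 1 and to -0.02 without wild type pool 3, so no direction is given for it. Without runx1 null pool 3 the values of spink2.10, spink2.8 and spink2.5 were -11.14, -7.29 and -6.52, with at most 3 counts in each runx1 null pool left; without wild type pool 2 they were -6.82, -4.23 and -3.37. The number of genes called was 0 in every edgeR alternative and 105 in the DESeq2 Wald test, which also called 7 listed genes; the cause was not tested. Of the 6 genes most like the family sum 3 stayed with Spearman's rho, 6 with a prior count of 0.5, and 0 to 3 when 1 library was left out.

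The replicate numbers of the titles are shared by pools of different fish, and the deviations of same-numbered pools correlated at 0.09, -0.36 and 0.46. With the replicate block the family sum was at -0.84 and 0 genes were called, with 902 at an unadjusted p-value under 0.05. Scaling to the total count, the sum without spink2.6, the stretches and pooled ratios with 1 pool left out and the neutrophil list without mmp9 were chosen after seeing the data. Depth limits spink2.8 and spink2.10, whose runx1 null pools held 1 and 3 counts in all.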
